A study of Homo sapiens with 4 samples.

Results

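The S100 proteins examined here were 10 genes, S100A2, S100A3, S100A4, S100A6, S100A10, S100A11, S100A13, S100A14, S100A16 and S100P, taken by name from a deposited table of 19732 gene symbols. The series studied RBM4, an RNA-binding protein that acts in splicing and translation, and its title ties RBM4 to senescence. Messenger RNA was measured in A549, a human lung adenocarcinoma cell line, in 1 culture with RBM4 knocked down and 1 control culture. The labels do not say how the knockdown was made beyond the letters sh in a sample title, nor what the control cells received. Cultures of the lung cancer line H1299, a knockdown and a control, are also described but were not analysed here, so every value below is from A549. The column names alone gave which library was the knockdown, and RBM4 itself had 30.6 FPKM in the knockdown library, against 59.4 FPKM in the control library.

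S100 proteins are small calcium-binding proteins of vertebrates that work mostly as dimers. Each subunit has a pair of EF-hands, the helix-loop-helix fold that holds a calcium ion, and calcium binding opens a surface on which the dimer grips a target protein. Inside the cell they bind annexins, non-muscle myosin and other partners of the membrane and cytoskeleton. Some are also released, and the receptor RAGE, the product of AGER, binds several of them. Most of the genes lie in a cluster on the long arm of chromosome 1, and S100P lies apart on chromosome 4.

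The members differ in the calcium-binding loop of their second EF-hand, shown here because calcium binding defines the family and an abundant member departs from it. In the coding sequence of the transcript of each member with the highest FPKM in either library, the 36 bases that encode the 12 residues of this loop were located in GENCODE release 29 (hg38). The codons at loop positions 1, 3, 5 and 12, which supply side chains to the calcium ion, are in capitals. The loops of S100A6 (chr1:153534753-153534788, minus strand), S100A4 (chr1:153543843-153543878, minus strand), S100A10 (chr1:151983244-151983279, minus strand), S100A11 (chr1:152032743-152032778, minus strand), S100A16 (chr1:153607612-153607647, minus strand) and S100P (chr4:6696938-6696973, plus strand) each lie within 1 coding exon and read, 5′ to 3′:
S100A6: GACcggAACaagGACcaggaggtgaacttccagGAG
S100A4: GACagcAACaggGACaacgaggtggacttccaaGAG
S100A11: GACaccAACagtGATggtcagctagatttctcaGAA
S100A10: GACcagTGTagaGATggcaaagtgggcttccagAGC
S100A16: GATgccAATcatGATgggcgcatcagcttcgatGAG
S100P: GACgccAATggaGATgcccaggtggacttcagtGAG

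In 8 of the 10 members all 4 capitalised codons encode aspartate, asparagine or glutamate, and the last encodes glutamate. The exceptions are S100A10, with 2 such codons, and S100A14, with 1. S100A10 is the family member known to be locked in the calcium-bound shape without calcium. The coding sequences of the 10 members ran from 90 codons in S100A6 to 105 codons in S100A11. FPKM counts fragments per length of transcript, so levels can be set side by side between genes.

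Levels in the family formed steps. S100A6 was the highest member, with 1037 FPKM in the knockdown library and 1072 FPKM in the control library, rank 67 among all symbols in the knockdown and rank 78 in the control library. S100A10, S100A11 and S100A4 followed, and these 4 genes held 92.1% of the summed S100 FPKM in the knockdown library and 93.3% in the control library. S100A16, S100A13 and S100A3 made up a middle step between 30.7 and 185 FPKM over both libraries. S100P and S100A2 were low, and S100A14, a gene of epithelia, was at 0.48 FPKM in the knockdown and 0.29 FPKM in the control library. S100A14 was thus the only member short of 1 FPKM in both libraries, and it is given no fold. In sum the S100 genes had 3738 FPKM in the knockdown library, 0.601% of the library's total FPKM, and 3517 FPKM in the control library, 0.524% of its total.

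**Figure D1:**
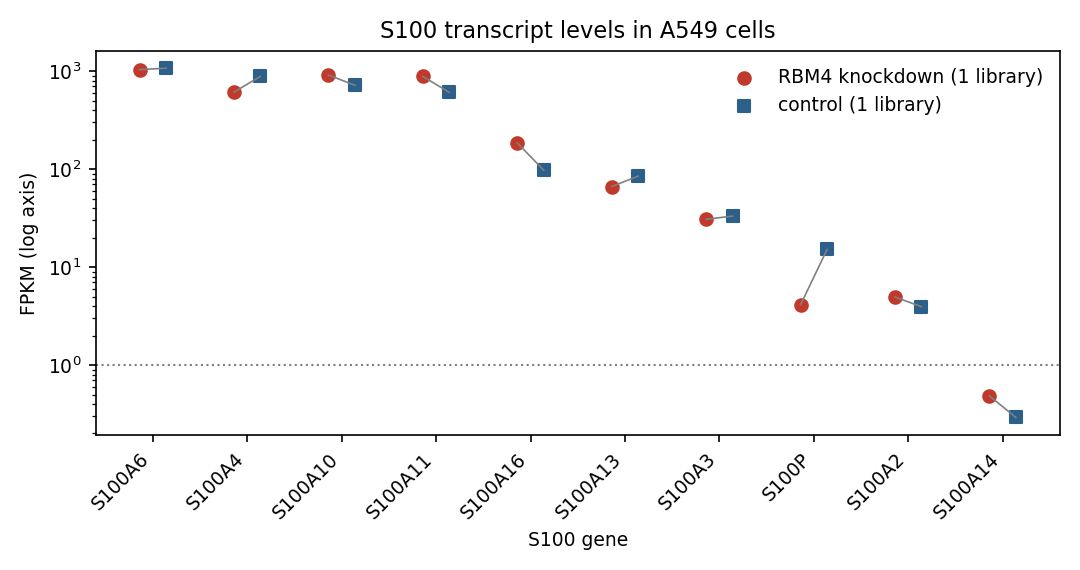
FPKM on a log axis (y) of the 10 S100 genes (x, ordered by the control level) in the RBM4 knockdown library (red circles) and the control library (blue squares) of A549, with grey lines joining the values of a gene and a dotted line at 1 FPKM. S100P has the widest gap on this axis, at 4.13 FPKM in the knockdown and 15.1 FPKM in the control library, and S100A14 lies below 1 FPKM in both.

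With 1 library per group there is no replicate error, no difference below has a test, and the order of neighbouring levels cannot be set against a spread. Differences are given as log2((knockdown FPKM + 1)/(control FPKM + 1)), which shrinks those of low genes. Of 12230 genes at 1 FPKM or more in either library, 607 (4.96%) were at least 2-fold higher and 275 (2.25%) at least 2-fold lower in the knockdown library. The 9 S100 members that passed the same filter, each at 1 FPKM or more in both libraries, counted none at least 2-fold higher and 1 at least 2-fold lower. Their median difference was -0.05, beside -0.04 for all genes, with 4 above 0 and 5 below. The median was near that of all genes, the single lower member is too few to read a share from, and the members lay on both sides of 0.

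S100P was the member past 2-fold. S100P (ENSG00000163993, chromosome 4, 6693069 to 6697170, plus strand, hg38), first purified from placenta and a binder of ezrin and RAGE, had 4.13 FPKM in the knockdown library, against 15.1 FPKM in the control library, 27.3% of the control level and a log2 difference of -1.65. Among the genes tested, 0.294% had a lower difference. In bulk RNA, fewer cells with a transcript and less of it per cell cannot be told apart. In the order of members S100P was in place 9 in the knockdown and place 8 in the control library, having changed places with S100A2. S100P was listed as 1 transcript, S100P-201, which GENCODE gives 1279 bases and a start at position 6693069 of chromosome 4. RefSeq starts the gene 809 bases further downstream (GRCh38.p14), and with a shorter transcript the same reads would give a higher FPKM in both libraries.

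S100A16 (ENSG00000188643, chromosome 1, 153606886 to 153613145, minus strand), a widely expressed member with a role described in fat cell formation, was the highest in difference. It had 185 FPKM in the knockdown library, against 97.5 FPKM in the control library, a log2 difference of 0.92 that fell short of 2-fold and that 5.97% of genes exceeded. The value passed 2-fold when both libraries were scaled to the same total (1.03) and when transcripts of the mitochondrial genome were left out as well (1.08). Those transcripts held 21.7% of FPKM in the knockdown library and 18.6% in the control library, and their part in the difference was otherwise not tested. Among all symbols S100A16 had rank 373 in the knockdown library and rank 841 in the control library.

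S100A10 and S100A11 were higher in the knockdown library, by less than 2-fold. S100A10, also called p11, forms a tetramer with annexin A2 that binds plasminogen at the cell surface. It had 914 FPKM in the knockdown library and 718 FPKM in the control library (log2 difference 0.35). S100A11, a partner of annexin A1 and annexin A2 in membrane repair and vesicle traffic, had 883 FPKM in the knockdown library and 607 FPKM in the control library (0.54), and 14.2% of genes had a higher difference. The processed pseudogenes S100A11P1 and S100A11P2 are annotated on chromosome 7, so reads could be shared with copies of the gene, and the authors' treatment of such reads is not known.

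The motility-linked member differed the other way. S100A4, which binds non-muscle myosin IIA and is known for its link to metastasis and to fibroblast-like cells, had 611 FPKM in the knockdown library, against 885 FPKM in the control library (-0.53), and 12.2% of genes had a lower difference. S100A4 was thus in place 4 among the members in the knockdown library and place 2 in the control library. Its ratio to S100A11, on the FPKM scale, was 0.692 in the knockdown and 1.46 in the control library. Both mesenchymal markers listed stood higher in the knockdown library: the cadherin gene CDH2 had 75.4 FPKM, against 21.4 FPKM in the control library, and the filament gene VIM had 769 FPKM, against 650 FPKM. S100A4 and this pair therefore differed in opposite directions, by 1.77 for CDH2 but only 0.24 for VIM. The VIM value lay between the quartiles of all genes tested (-0.32 and 0.29).

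S100A13, S100A6, S100A3 and S100A2 were within 2-fold with summed FPKM. S100A13, which helps release growth factors and cytokines that lack a signal peptide, had 66.4 FPKM in the knockdown library and 84.8 FPKM in the control library (-0.35). Its exons overlap those of S100A1 on the opposite strand, and S100A1 was below 1 FPKM in both libraries. S100A6, or calcyclin, named for its link to cycling cells, differed by -0.05, and S100A3, a cysteine-rich member of the hair cuticle, by -0.11, at 30.7 FPKM in the knockdown library and 33.2 FPKM in the control library. Both turned above 0 when the libraries were scaled to the same total (0.06 for S100A6, and 0.0004 for S100A3) and when mitochondrial transcripts were left out as well (0.12 for S100A6, and 0.05 for S100A3), so no direction is given for them. S100A2, a member of basal and squamous epithelia, had 4.94 FPKM in the knockdown library and 3.94 FPKM in the control library (0.27).

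**Figure D2:**
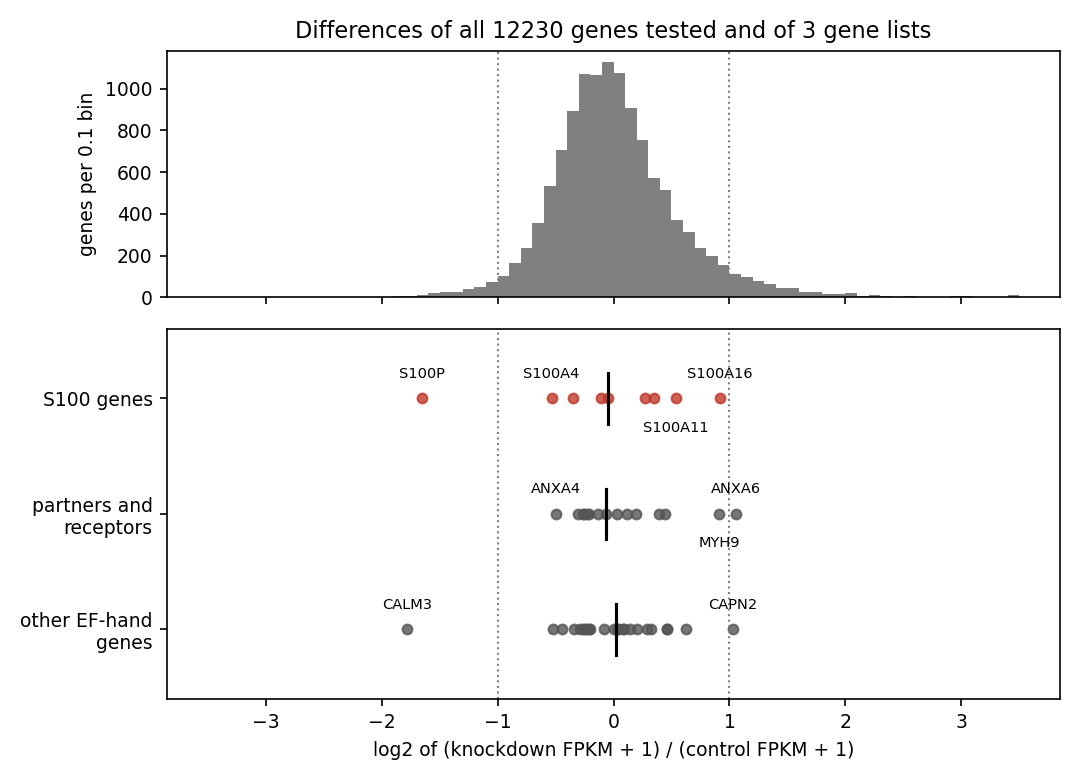
Log2 differences, knockdown minus control (x), as a histogram of all 12230 genes tested (top, genes per bin of 0.1, with values beyond the axis put in the end bins) and as points for the S100 genes, the partner and receptor genes and the other EF-hand genes that passed the filter (bottom), with black bars at each list's median and dotted lines at 2-fold. S100P, at -1.65, lies apart from the other S100 genes, which run from -0.53 to 0.92.

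The table lists single transcripts, and most members were carried by 1 form in both libraries. Of 32 listed transcripts of the 10 genes, 22 reached 1 FPKM in either library. S100A6-201 held 96.2% of S100A6 in the knockdown and 95.2% in the control library. S100A10-201 held 81.2% of S100A10 in the knockdown library and 80.5% in the control library, and its longer form S100A10-202, which starts further upstream, was higher by a like amount (0.29, beside 0.36 for S100A10-201).

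Among the S100A4 forms, which start at different positions, the second most abundant differed most. S100A4-201 had 107 FPKM in the knockdown library, against 214 FPKM in the control library (-0.99). S100A4-204, the main form, had 495 FPKM in the knockdown library and 657 FPKM in the control library (-0.41), and so held 81.0% of the gene in the knockdown and 74.2% in the control library.

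The S100A16 forms also start at separate positions. The main form S100A16-204, from the upstream start, had 145 FPKM in the knockdown library and 80.6 FPKM in the control library (0.84). S100A16-203, from a downstream start, had 35.6 FPKM in the knockdown library, against 12.8 FPKM in the control library (1.41), past 2-fold. The other downstream forms did not share this. S100A16-202, which starts close by, had 4.28 FPKM in the knockdown library and 3.05 FPKM in the control library (0.38). S100A16-201, from further downstream, was listed at 0 in the knockdown library and had 1.12 FPKM in the control library. S100A13 was divided between S100A13-204, with 50.8% of the gene in the knockdown and 44.1% in the control library, and S100A13-201, with 42.5% in the knockdown and 44.9% in the control library.

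S100A2 had a different main form in each library, at low levels. S100A2-202 had 3.89 FPKM in the knockdown library, against 0.99 FPKM in the control library (1.30), while S100A2-204 had 0.43 FPKM in the knockdown library, against 2.06 FPKM in the control library (-1.10). The summed level of S100A2 thus hides differences of its forms in opposite directions. How the authors divided fragments among overlapping forms is not known, nor is the depth of the libraries, and these divisions of a few FPKM carry no error estimate.

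**Figure D3:**
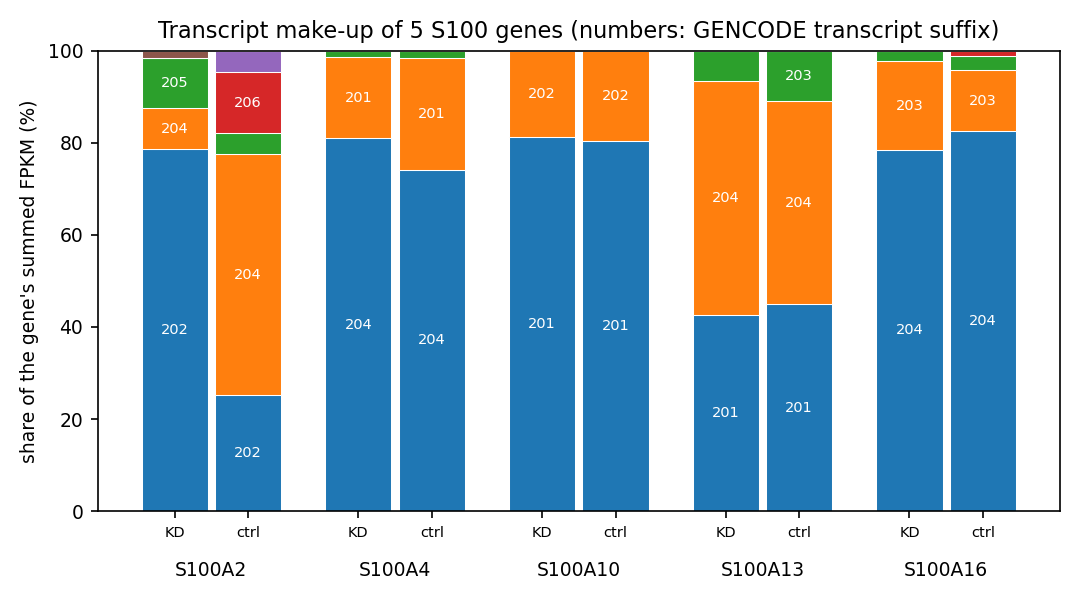
Share of each gene's summed FPKM held by each of its transcripts (y, percent) for 5 S100 genes, with the knockdown library (KD) left of the control library (ctrl) and GENCODE transcript suffixes written in the larger blocks. The blocks of S100A2 differ most, with 202 at 78.7% in the knockdown and 25.1% in the control library, whereas those of S100A10 lie within 1 percentage point.

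The rest of the family was nearly silent. Of 10 other S100 genes, 8 were listed at 0 in both libraries, namely S100A7, S100A7A, S100A8, S100A9, S100A12, S100B, S100G and S100Z, which include the calprotectin subunits of myeloid cells (S100A8 and S100A9). S100A1 was at 0.996 FPKM in the knockdown and 0.149 FPKM in the control library. S100A5 was at 1.05 FPKM in the knockdown library and listed at 0 in the control library, so it passed the filter through the knockdown library alone and is given no fold. The 7 fused-type S100 genes of skin, such as FLG and HRNR, were all below 0.1 FPKM in both libraries.

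Members of the gene cluster lay on both sides of 0. The chromosome 1 cluster spans 151982915 to 153632039 (hg38), and the S100A members that passed the filter ran in difference from -0.53 (S100A4) to 0.92 (S100A16), with S100A13 (-0.35) a near neighbour of S100A16. The neighbours S100A10 (0.35) and S100A11 (0.54) were both above 0, and S100A4 and S100A3 (-0.11) both below 0 as deposited. Of 45 other protein-coding genes listed inside the span, 37 were at 0 in both libraries and 1 passed the filter, the cornified envelope gene LCE3D, at 2.62 FPKM in the knockdown library and listed at 0 in the control library. The 10 tested genes that flank the span, 5 on each side, ran from -0.63 (THEM4) to 0.59 (SNX27), and none was past 2-fold.

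Of the partners and receptors of S100 proteins, ANXA6 was past 2-fold. Of 16 listed genes, 15 passed the filter, 1 of them at least 2-fold higher and none at least 2-fold lower, beside 4.96% higher and 2.25% lower over all genes. Their median was -0.07 beside -0.04 for all genes, and 7 were above 0 and 8 below. AGER, among those below 0, passed the filter through the control library alone. With a minimum of 5 FPKM in either library, which leaves AGER out, the median was -0.02. The annexins differed among themselves. ANXA6, which organises membrane and cholesterol traffic, had 49.5 FPKM in the knockdown library, against 23.3 FPKM in the control library (1.05, though 0.94 with a pseudocount of 5 and 0.88 with the highest transcript per symbol). ANXA5 (0.44) was also higher, while ANXA4 (-0.50), ANXA1 (-0.27), ANXA7 (-0.23) and ANXA11 (-0.21) were lower in the knockdown library.

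ANXA2, the partner of S100A10 and the most abundant annexin listed, had 1790 FPKM in the knockdown library and 1875 FPKM in the control library (-0.07, turning to 0.04 with libraries scaled to the same total and to 0.10 with mitochondrial transcripts also left out). The FPKM ratio of S100A10 to ANXA2 was 0.510 in the knockdown and 0.383 in the control library. ANXA1 had 666 FPKM in the knockdown library and 801 FPKM in the control library, and the ratio of S100A11 to ANXA1 was 1.32 in the knockdown and 0.758 in the control library.

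Among cytoskeletal partners, MYH9, the heavy chain of non-muscle myosin IIA to which S100A4 binds, had 261 FPKM in the knockdown library, against 138 FPKM in the control library (0.91, and 1.02 with the libraries scaled to the same total). S100A4 and MYH9 thus differed in opposite directions. MYH10 (0.19, but -0.11 with the highest transcript) and AHNAK (0.11), a scaffold that binds the S100A10 and annexin A2 complex, were higher by less, and the membrane linker EZR, a partner of S100P, was lower (-0.26). CACYBP, the calcyclin-binding protein, was at 115 FPKM in the knockdown library and 143 FPKM in the control library (-0.31, but 0.05 with the highest transcript), and S100PBP, which binds S100P, was at 18.3 FPKM in the knockdown library and 13.7 FPKM in the control library (0.39).

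Receptors for released S100 proteins differed in level. AGER, which encodes RAGE, was at 0.91 FPKM in the knockdown library and 1.10 FPKM in the control library, and TLR4 was at 0.02 FPKM in the knockdown library and 0.11 FPKM in the control library. BSG, the surface glycoprotein basigin and a receptor for S100A9, was abundant and close to 0 in difference, at 282 FPKM in the knockdown library and 276 FPKM in the control library (0.03).

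Of the other EF-hand genes, CALM3 and CAPN2 were past 2-fold. All 24 listed genes passed the filter, with 1 at least 2-fold higher, 1 at least 2-fold lower, beside 4.96% and 2.25% over all genes, and a median of 0.02. CALM3, a calmodulin gene, had 52.5 FPKM in the knockdown library, against 182 FPKM in the control library (-1.78), whereas CALM2 (-0.08), which encodes the same protein, lay near 0. CALM3-201, the main CALM3 form, had 31.0 FPKM in the knockdown library, against 114 FPKM in the control library. CAPN2, the catalytic subunit of m-calpain, a calcium-dependent protease, had 263 FPKM in the knockdown library, against 128 FPKM in the control library (1.03). The next highest were NUCB2 (0.63) and EFHD1 (0.46), and the next lowest RCN2 (-0.52) and PDCD6 (-0.44).

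**Figure D4:**
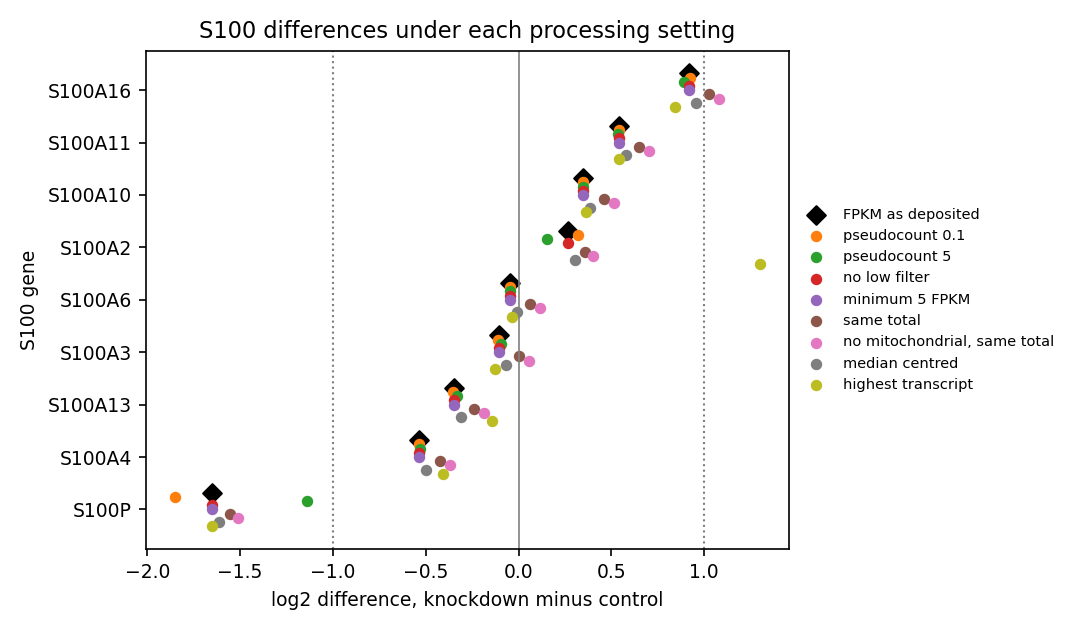
Log2 difference, knockdown minus control (x), of the 9 S100 genes that passed the filter (y) with FPKM as deposited (black diamonds) and under 8 other processing settings (coloured circles), with dotted lines at 2-fold. S100P is below -1 throughout (-1.85 to -1.14), S100A16 lies between 0.84 and 1.08, S100A2 reaches 1.30 with the highest transcript, and S100A6 and S100A3 lie on both sides of 0.

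Markers of the cell line were in part those of an epithelial carcinoma. Of 6 epithelial markers, all passed the filter, with 1 at least 2-fold higher and 1 at least 2-fold lower, beside 4.96% and 2.25% over all genes. The keratin gene KRT18 had 912 FPKM in the knockdown library, against 1853 FPKM in the control library (-1.02, though -0.91 with the libraries scaled to the same total, -0.86 with mitochondrial transcripts also left out and -0.98 with differences centred on the median of all genes), and KRT8 had 888 FPKM, against 1646 FPKM (-0.89). KRT19 had 64.9 FPKM in the knockdown library, against 29.6 FPKM in the control library (1.11), and KRT7 had 2446 FPKM, against 1880 FPKM (0.38). EPCAM was low at 2.75 FPKM in the knockdown and 2.74 FPKM in the control library. The cadherin gene CDH1 had 6.54 FPKM in the knockdown library and 7.70 FPKM in the control library (-0.21). The alveolar genes SFTPB and SFTPA1 were listed at 0 in both libraries. The other alveolar genes listed did not pass the filter: NAPSA had 0.48 FPKM in the knockdown and 0.62 FPKM in the control library, and SFTPC had 0.35 FPKM and 0. The filter was passed by 2 of 7 fibroblast markers, THY1 and COL1A1, both above 1 FPKM in each library. The fibroblast list summed to 36.4 FPKM in the knockdown library, against 8.67 FPKM in the control library, while DCN was at 0 in both. Of 7 blood and immune markers, 2 passed, CD68 (log2 difference 1.76) and CD14 (0.75). This list summed to 30.2 FPKM in the knockdown and 9.06 FPKM in the control library, while CD3E, LYZ and HBB were at 0 in both. No endothelial marker of 4 passed, and of 4 squamous markers 1 did, TP63, with KRT5, KRT14 and DSG3 at 0 in both. The part of other cells in the S100 differences was not tested.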

How the data were processed

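RNA of A549 cells was sequenced from 1 RBM4 knockdown and 1 control culture. Values were deposited as FPKM per protein-coding transcript (79989 transcripts), and the submitters' processing notes name hg38, Cufflinks, TopHat and CASAVA 1.8.2; their roles, the annotation, strand setting and filters are not given in the sources used here. Total FPKM was 622366 in the knockdown and 671529 in the control library; read depth is unknown, so no counting interval is given. Columns were matched to samples by name: the bare name of the line was read as control and the name with a number as knockdown. The other deposited table has 3 columns of values whose names match no label for the 2 H1299 samples, and they were not used; the planned H1299 comparison was not made.

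Transcripts were summed per symbol (Python 3.11.15, pandas 2.3.3), genes at 1 FPKM or more in either library were kept, and log2 differences used a pseudocount of 1. No test was made. Counting was checked on simulated data. Loops were found in GENCODE release 29 coding sequences by a hydrophobic residue, phenylalanine and an acidic or serine residue at fixed spacing. The members and lists were chosen with earlier results of these data known. Named genes were all S100 genes, all partners and, of the other EF-hand genes, the 3 highest and 3 lowest; CALM2, markers, flanking genes and LCE3D were named after their values were seen. Some listed genes are not reported here by name.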

Additional observations from a re-analysis of the deposited data

How the results depend on the processing

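No paired analysis was possible because each group had 1 library. Differences of S100A10, S100A11, S100A16 and S100A2 were above 0, and those of S100A4, S100A13 and S100P below 0, with FPKM as deposited and under all 8 alternatives that kept the gene. A change of pseudocount cannot turn a sign, and a change of the filter leaves a gene's value as it was. Of the other settings, equal totals, leaving out mitochondrial transcripts and median centring raised the difference of each of the genes just named. They could therefore not have turned S100A10, S100A11, S100A16 or S100A2 below 0. S100A11 and S100P have 1 listed transcript each, so the highest transcript left their values as they were. No setting could thus have turned S100A11, and only an upward shift could have turned S100P. The genes at least 2-fold higher and lower numbered 985 and 418 with a pseudocount of 0.1, and 223 and 137 with a pseudocount of 5. They numbered 739 and 201 with equal totals, and 810 and 176 with mitochondrial transcripts also left out, against 607 and 275 as reported. S100 members at least 2-fold higher numbered 1 with the libraries scaled to the same total, with mitochondrial transcripts left out (both S100A16) and with the highest transcript per symbol (S100A2), against 0 as reported. The members' median became 0.0757 without the filter on low values, which adds S100A14, 0.0615 with equal totals and 0.12 with mitochondrial transcripts left out. In the last pair of settings the median of all genes shifted by 0.10 and 0.15, the share of 2-fold genes that were higher was 78.6% and 82.2%, against 68.8% as reported, the partners' median became 0.0434 and 0.0982, with 2 genes 2-fold higher in each, ANXA6 and MYH9, and the EF-hand median 0.12 and 0.17. With the highest transcript the EF-hand median was -0.13. No partner was 2-fold higher with a pseudocount of 5 or with the highest transcript, where 6 of 10 members kept their place in the order of the knockdown library. Of 459 values of single genes under the alternatives, 447 stayed on their side of 2-fold. This tally includes the values under the changed filters, which could not differ from those as deposited. It also counts as staying some genes that changed sign within 2-fold, such as S100A6 and MYH10. Causes were not tested beyond what each setting changes. Without replicates or depth, small differences and low levels such as those of S100A2 and S100A14 have no error estimate.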
